A study of Mus musculus with 6 samples.

Results

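The genes described here are those of the NRF2 pathway and of the enzymes that remove peroxides and superoxide, 35 genes chosen by name. A gene was measured where a probe set of the array lists its symbol, alone or with other symbols, and the brightest such probe set stood for it. This gave 32 of the 35 genes, among 20176 rows tested in all; G6pdx, Prdx5 and Prdx6 matched no probe set by symbol and were not analysed here. The samples were RW4 mouse embryonic stem cells, profiled on 6 single-colour arrays. Of these, 2 came from untreated cells, 2 from cells with 1 µM 4OHT (4-hydroxytamoxifen) and 2 from cells with 1 µM Shld1. The labels list the induction system of these groups as WT, ERT2 and FKBP; 4OHT activates fusions to ERT2, and Shld1 protects fusions to an unstable FKBP from degradation. Whether any fusion was present is not stated, nor how long the agents were given, nor whether the duplicates were separate cultures, so the spread between them may be technical. All groups shared a medium with newborn calf and fetal bovine serum, leukemia inhibitory factor and, per the labels' protocols, 20 mM β-mercaptoethanol, a thiol reductant. That concentration is far above the usual one in stem cell medium, and whether it is a slip in the labels could not be checked.

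NRF2, encoded by Nfe2l2, is a transcription factor that KEAP1 holds for degradation in unstressed cells. Electrophiles and oxidants modify cysteines of KEAP1, NRF2 then accumulates, and with small MAF partners it binds the antioxidant response element before genes for glutathione synthesis, the thioredoxin system, detoxification and NADPH supply. The glutathione and thioredoxin systems pass electrons from NADPH to peroxidases, while superoxide dismutases and catalase act without them.

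The start regions of the genes are shown to give the element the pathway is named for. The core searched was TGACNNNGC, on either strand, in windows of 300 bases (250 before the start and 50 after it) in RefSeq's mouse assembly GRCm38.p6. Of the 35 genes, 29 had at least 1 window. Hmox1, Gclc, Gsr, Gsta4, Prdx6 and Abcc1 had none and so were not searched. Of the 38 windows of the 29 genes, 8 (21.1%) held the core, against 12.4% of all 32851 windows. The genes of these 8 were Nfe2l2, Gclm, Srxn1, Txnrd1, Prdx1, Sod1, Pgd and G6pdx. The match in Prdx1 also overlaps the AP-1 site TGANTCA, and the matches in Srxn1 and Pgd lie after the start. A match describes letters only, and the NRF2 targets Nqo1, Slc7a11 and Osgin1 had windows without one, as did other starts of Txnrd1. The 250 bases before the start follow, on the gene's strand with the match in capitals, for Gclm, Prdx1 and one start of Txnrd1, which are textbook NRF2 targets, and for Taldo1, a pentose phosphate gene with no match, chosen after its values were seen because it read lower with both agents.
Gclm chr3:122245307-122245556 (+): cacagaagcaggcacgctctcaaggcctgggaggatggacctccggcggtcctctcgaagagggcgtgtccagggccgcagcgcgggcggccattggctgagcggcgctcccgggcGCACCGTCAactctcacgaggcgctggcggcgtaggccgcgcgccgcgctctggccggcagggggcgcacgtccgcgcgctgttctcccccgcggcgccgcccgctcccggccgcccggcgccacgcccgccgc
Prdx1 chr4:116685349-116685598 (+): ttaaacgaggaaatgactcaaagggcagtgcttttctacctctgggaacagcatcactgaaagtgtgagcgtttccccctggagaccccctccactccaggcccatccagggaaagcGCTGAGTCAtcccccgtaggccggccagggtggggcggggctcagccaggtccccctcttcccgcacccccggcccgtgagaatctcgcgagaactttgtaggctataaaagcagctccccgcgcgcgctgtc
Txnrd1 chr10:82858956-82859205 (+): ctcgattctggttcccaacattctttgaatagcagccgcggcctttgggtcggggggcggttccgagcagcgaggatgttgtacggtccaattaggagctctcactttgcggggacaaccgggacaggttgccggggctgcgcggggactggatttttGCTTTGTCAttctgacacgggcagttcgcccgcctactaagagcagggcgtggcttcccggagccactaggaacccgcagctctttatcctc
Taldo1 chr7:141391910-141392159 (+): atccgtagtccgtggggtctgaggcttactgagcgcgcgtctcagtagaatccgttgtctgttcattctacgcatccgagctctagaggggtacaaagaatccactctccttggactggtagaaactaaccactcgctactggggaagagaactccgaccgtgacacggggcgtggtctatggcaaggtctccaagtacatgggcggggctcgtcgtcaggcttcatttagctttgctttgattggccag

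Array values are log2 signals, so a difference of 1 is 2-fold, and a level is not comparable between probe sets. The 95th percentile of the mean signal of 1027 olfactory receptor genes, 3.76, served as a background level. All 10 stem cell markers were above it in every group, as were 7 of 9 primitive endoderm markers. Of the 8 fibroblast markers, 4 exceeded it in each group, namely Col1a1, Col1a2, Col3a1 and Thy1. Pdgfrb did so under 4OHT alone, which made 5 there, and Postn, Lum and Dcn did so nowhere. Trophoblast markers above the level numbered 3 of 7 without treatment and 4 of 7 under either agent. Among 3 erythroid markers, 2 exceeded it in each group. Over the 35556 probe sets the SD of the signals was 2.33 to 2.35 on 4 arrays, 2.29 on 4OHT replicate 1 and 2.24 on Shld1 replicate 2. Each comparison was fitted with limma over all rows, and 0 rows passed at a Benjamini-Hochberg adjusted p under 0.05 in any comparison. At an unadjusted p under 0.05 there were 1001, 863 and 1142 rows in 4OHT against untreated, Shld1 against untreated and 4OHT against Shld1. In bulk RNA, fewer cells of a type and less RNA per cell cannot be told apart.

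In untreated stem cells, 31 of the 32 measured genes lay above the background level. The exception was Slc7a11, the cystine carrier subunit of the xc- antiporter and a well-known NRF2 target, at 2.58 and 2.56 on the untreated arrays. It stayed below the level with 4OHT (2.61 and 2.21) and with Shld1 (2.57 and 2.92), so its differences are limited by background.

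**Figure D1:**
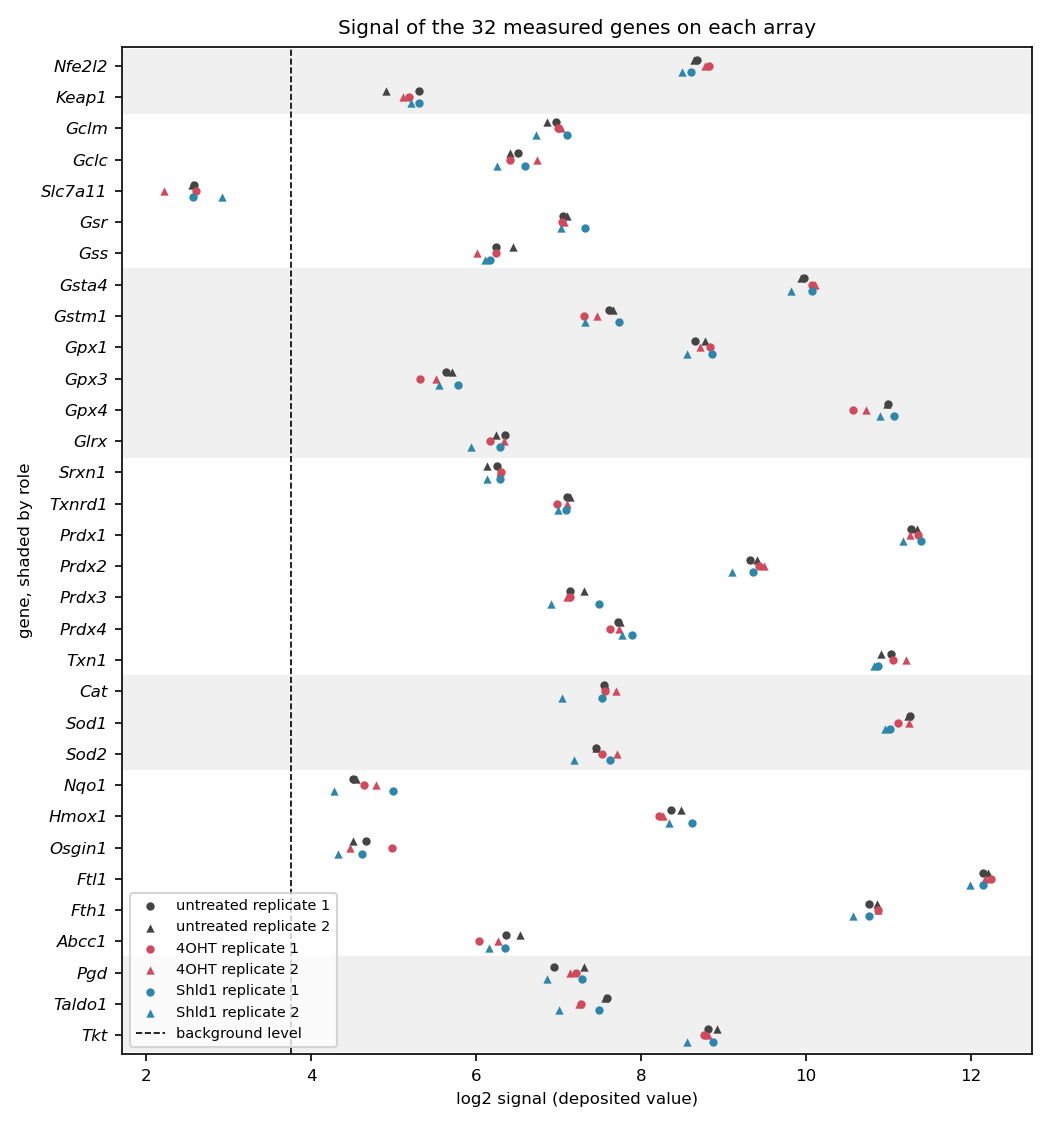
Log2 signal (x axis) of the 32 measured genes (y axis, shaded by role) on each of the 6 arrays; circles are replicate 1, triangles replicate 2, and the dashed line is the background level of 3.76. Slc7a11 alone lies below the line, and for some genes the arrays of 1 group lie apart, as for Nqo1 with Shld1 (4.99 and 4.27).

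The regulators were read first. Nfe2l2 was at 8.67 and 8.64 in untreated cells, 8.83 and 8.77 with 4OHT, and 8.60 and 8.49 with Shld1. Its groups did not overlap, with the 4OHT arrays highest and the Shld1 arrays lowest, yet the differences were small: 0.14 (SE 0.14) for 4OHT and -0.11 (SE 0.14) for Shld1 against untreated (limma, adjusted p = 0.958 and 0.999). Between the agents, the Nfe2l2 difference was 0.25 (SE 0.14; limma, adjusted p = 0.888). Keap1, the sensor that marks NRF2 for degradation, was at 5.30 and 4.91 untreated, 5.18 and 5.11 with 4OHT, and 5.30 and 5.21 with Shld1. The untreated arrays of Keap1 lay further apart than those of either treated group and overlapped both.

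Among the classical NRF2 targets, neither agent gave a shared shift. Nqo1, the quinone reductase most often used as a readout of NRF2, was at 4.50 and 4.54 untreated and 4.63 and 4.78 with 4OHT, a difference of 0.19 (SE 0.21, 95% interval -0.29 to 0.67). With Shld1, Nqo1 was at 4.99 and 4.27, so that one array lay above and the other below all other arrays. Hmox1, the inducible haem oxygenase, was at 8.36 and 8.48 untreated, 8.22 and 8.26 with 4OHT, and 8.61 and 8.34 with Shld1. Its 4OHT arrays were the lowest, with a difference from untreated of -0.18 (SE 0.15), in the opposite direction to Nqo1. Srxn1, the sulfiredoxin that repairs overoxidised peroxiredoxins, was at 6.25 and 6.12 untreated, 6.30 and 6.29 with 4OHT, and 6.29 and 6.14 with Shld1. Txnrd1, thioredoxin reductase, was at 7.10 and 7.14 untreated, 6.97 and 7.10 with 4OHT, and 7.09 and 6.99 with Shld1. For Srxn1 and Txnrd1 the differences from untreated lay between -0.08 and 0.10 with either agent, inside an SE of 0.14. Osgin1, another stress-induced target, was at 4.66 and 4.51 untreated, 4.98 and 4.47 with 4OHT, and 4.61 and 4.33 with Shld1. Its 4OHT arrays lay on either side of the untreated ones, so the difference of 0.14 (SE 0.19) became -0.12 without 4OHT replicate 1 and 0.39 without replicate 2. With Shld1 Osgin1 differed by -0.12 (SE 0.19), and by 0.03 without Shld1 replicate 2.

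Glutathione is made from cysteine by glutamate-cysteine ligase and glutathione synthetase and is kept reduced by Gsr. Gclm, the modifier subunit of the ligase, was at 6.97 and 6.86 untreated, 6.99 and 7.02 with 4OHT, and 7.10 and 6.72 with Shld1. Gclc, its catalytic subunit, was at 6.51 and 6.40 untreated, 6.41 and 6.73 with 4OHT, and 6.59 and 6.26 with Shld1. Each subunit had its Shld1 arrays on either side of the untreated ones, and their differences were at most 0.11 with 4OHT. Gss, glutathione synthetase, was at 6.24 and 6.44 untreated, 6.24 and 6.004 with 4OHT, and 6.17 and 6.11 with Shld1. The untreated Gss arrays were the highest, by a narrow margin, with differences of -0.22 (SE 0.15) for 4OHT and -0.20 (SE 0.15) for Shld1. Both differences use the same untreated arrays. Gsr, glutathione reductase, differed by -0.02 with 4OHT and 0.10 with Shld1 (SE 0.15 for each).

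The most negative difference of the 32 genes with 4OHT was that of Gpx4, the selenoenzyme that reduces lipid hydroperoxides in membranes and guards cells against ferroptosis. Gpx4 was at 10.996 and 10.98 in untreated cells, 10.56 and 10.73 with 4OHT, and 11.06 and 10.90 with Shld1. The 4OHT arrays lay below the other 4. The Gpx4 difference from untreated was -0.34 (SE 0.14, 95% interval -0.67 to -0.02), a 1.27-fold lower signal. It missed the adjusted threshold (limma, adjusted p = 0.955, from an unadjusted p = 0.0387). Of all rows, 3.36% had a difference as low or lower. Against Shld1 it was -0.33 (SE 0.14; adjusted p = 0.87; unadjusted p = 0.0435), while Shld1 against untreated gave -0.01 (SE 0.14). The second Gpx4 probe set, which lists the same transcripts and so is no independent measure, gave -0.31 for 4OHT and 0.03 for Shld1 against untreated. Without 4OHT replicate 1 the Gpx4 difference from untreated was -0.26, and without replicate 2 it was -0.43.

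Other enzymes that use glutathione were mixed. Gpx3, the secreted plasma peroxidase, was at 5.63 and 5.70 untreated, 5.32 and 5.51 with 4OHT, and 5.78 and 5.55 with Shld1. Gstm1, a glutathione transferase, was at 7.61 and 7.65 untreated, 7.31 and 7.47 with 4OHT, and 7.73 and 7.32 with Shld1. Both had their 4OHT arrays below the untreated ones, at -0.25 (SE 0.15) for Gpx3 and -0.25 (SE 0.17) for Gstm1. The Shld1 arrays of Gstm1 lay far apart, while those of Gpx3 lay only a little further apart than its 4OHT arrays. Gpx1, the cytosolic peroxidase, and Gsta4, a transferase for lipid aldehydes, differed in the other direction with 4OHT, by 0.06 (SE 0.16) and 0.14 (SE 0.15). Glrx, glutaredoxin, differed by -0.04 (SE 0.16) with 4OHT and -0.18 (SE 0.16) with Shld1.

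**Figure D2:**
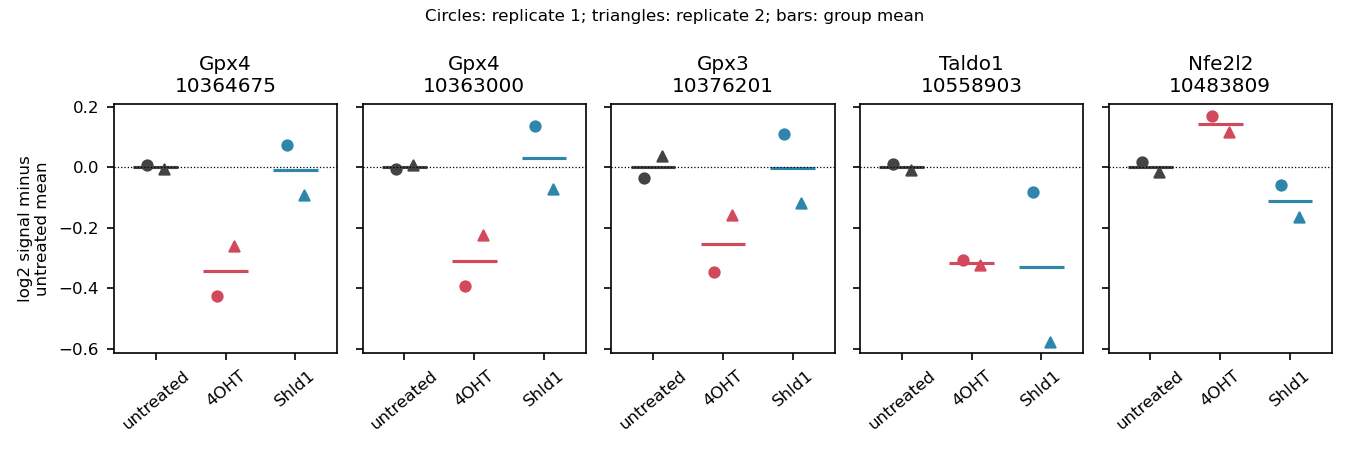
Log2 signal relative to the untreated mean (y axis) in the 3 groups (x axis) for both probe sets of Gpx4 and for Gpx3, Taldo1 and Nfe2l2; circles are replicate 1, triangles replicate 2 and bars group means. Both Gpx4 probe sets read lower on the 4OHT arrays, at group differences of -0.34 and -0.31, and Taldo1 shows its widest gap between the Shld1 arrays.

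In the thioredoxin system, Txn1, thioredoxin, was at 11.02 and 10.91 untreated, 11.06 and 11.21 with 4OHT, and 10.86 and 10.82 with Shld1. Its 3 groups did not overlap, in the same order as those of Nfe2l2, Cat and Fth1. For Cat and Fth1 the margins were very narrow. The higher untreated Cat array was at 7.556 and the lower 4OHT array at 7.559. The lower untreated Fth1 array was at 10.762 and the higher Shld1 array at 10.760. How many of all rows show this order was not counted, so it cannot be read as a trait of these genes. The 4OHT and Shld1 groups of Txn1 differed by 0.29 (SE 0.14, limma, adjusted p = 0.888). The peroxiredoxins, which reduce hydrogen peroxide with electrons from thioredoxin, gave 4 measured genes. Prdx1, a cytosolic form, differed by 0.01 with 4OHT and -0.02 with Shld1 (SE 0.15 for each). The other peroxiredoxins lay between -0.10 (Prdx3) and 0.10 (Prdx2) with 4OHT and between -0.13 (Prdx2) and 0.09 (Prdx4) with Shld1. For Prdx2 the choice of probe set matters. The brighter one had a mean of 9.36 in untreated cells and the dimmer one 6.74, and the 4OHT difference was 0.10 on the first and -0.10 on the second. RefSeq lists pseudogene copies of Prdx1, Prdx2, Gpx4 and Ftl1, so which copy a probe set reads is uncertain for these genes.

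Of the enzymes that act on superoxide and hydrogen peroxide directly, Sod1 and Cat read lower with Shld1. Sod1, the copper-zinc dismutase of the cytosol, was at 11.25 and 11.23 untreated, 11.12 and 11.24 with 4OHT, and 11.02 and 10.96 with Shld1. Its Shld1 arrays lay close together and below all others, at -0.26 (SE 0.14, 95% interval -0.56 to 0.05; limma, adjusted p = 0.999) against untreated. Cat, catalase of peroxisomes, was at 7.55 and 7.56 untreated, 7.56 and 7.69 with 4OHT, and 7.52 and 7.04 with Shld1. Its difference of -0.27 (SE 0.17) with Shld1 came almost whole from replicate 2: it was -0.51 with that array alone and -0.03 without it. Sod2, the mitochondrial dismutase, differed by 0.16 (SE 0.17) with 4OHT and -0.05 (SE 0.17) with Shld1.

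NADPH for both systems comes in part from the pentose phosphate pathway. Taldo1, transaldolase, was at 7.58 and 7.56 untreated, 7.27 and 7.25 with 4OHT, and 7.49 and 6.997 with Shld1. The 4OHT arrays agreed closely with each other and lay below both untreated arrays, at -0.31 (SE 0.17; limma, adjusted p = 0.955). The Shld1 difference of Taldo1 was -0.33 (SE 0.17), but -0.08 without Shld1 replicate 2 and -0.58 without replicate 1. Tkt, transketolase, differed by -0.08 and -0.15 (SE 0.15 for each), and Pgd, 6-phosphogluconate dehydrogenase, by 0.04 and -0.06 (SE 0.19 for each). Abcc1, which exports glutathione conjugates, was at 6.35 and 6.53 untreated, 6.03 and 6.27 with 4OHT, and 6.35 and 6.15 with Shld1. Both its 4OHT arrays were below the untreated ones, with a difference of -0.29 (SE 0.16). The iron-storing ferritin chains Ftl1 and Fth1 differed by 0.03 and 0.06 with 4OHT and by -0.11 and -0.14 with Shld1 (SE 0.14 for each). The Ftl1 probe set also lists microRNA genes; the one that lists Ftl1 alone gave 0.09 and -0.13.

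As a list, the 32 genes had a median difference of 0.02 with 4OHT, against -0.01 over all genes tested, with 17 above zero and 15 below. Of them 1 (Gpx4) had an unadjusted p under 0.05 in 4OHT against untreated, where 4.96% of all rows did (2.53% higher and 2.43% lower). The 4OHT and untreated arrays did not overlap at 17 of the 32 genes, 10 higher and 7 lower, where 37.9% of all rows did not overlap (17.4% higher and 20.4% lower). The 10 were Nfe2l2, Nqo1, Gclm, Srxn1, Gsta4, Prdx2, Txn1, Cat, Sod2 and Fth1, and the 7 were Hmox1, Gstm1, Gss, Gpx3, Gpx4, Taldo1 and Abcc1. The 95% interval lay within 2-fold for all 32 genes with 4OHT and within 1.5-fold for 26. Over all 20176 rows these counts were 19953 and 14650.

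With Shld1 the median was -0.06, against -0.01 over all genes, and 25 of the 32 genes lay below zero. Of the list 7 (21.9%) were higher, against 48.7% of all genes and 41.5% of those above background. None had an unadjusted p under 0.05, where 4.28% of all rows did (2.38% higher and 1.90% lower). The arrays did not overlap at 10 genes, where 32.5% of rows did not: Prdx4 was higher (15.1% of rows) and 9 genes lower (17.4% of rows). The interval lay within 2-fold for all 32 and within 1.5-fold for 29, where 19933 and 15089 of all 20176 rows did. The lean of the list to lower values turned with 1 array: the median was 0.08 without Shld1 replicate 2 and -0.19 without Shld1 replicate 1.

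**Figure D3:**
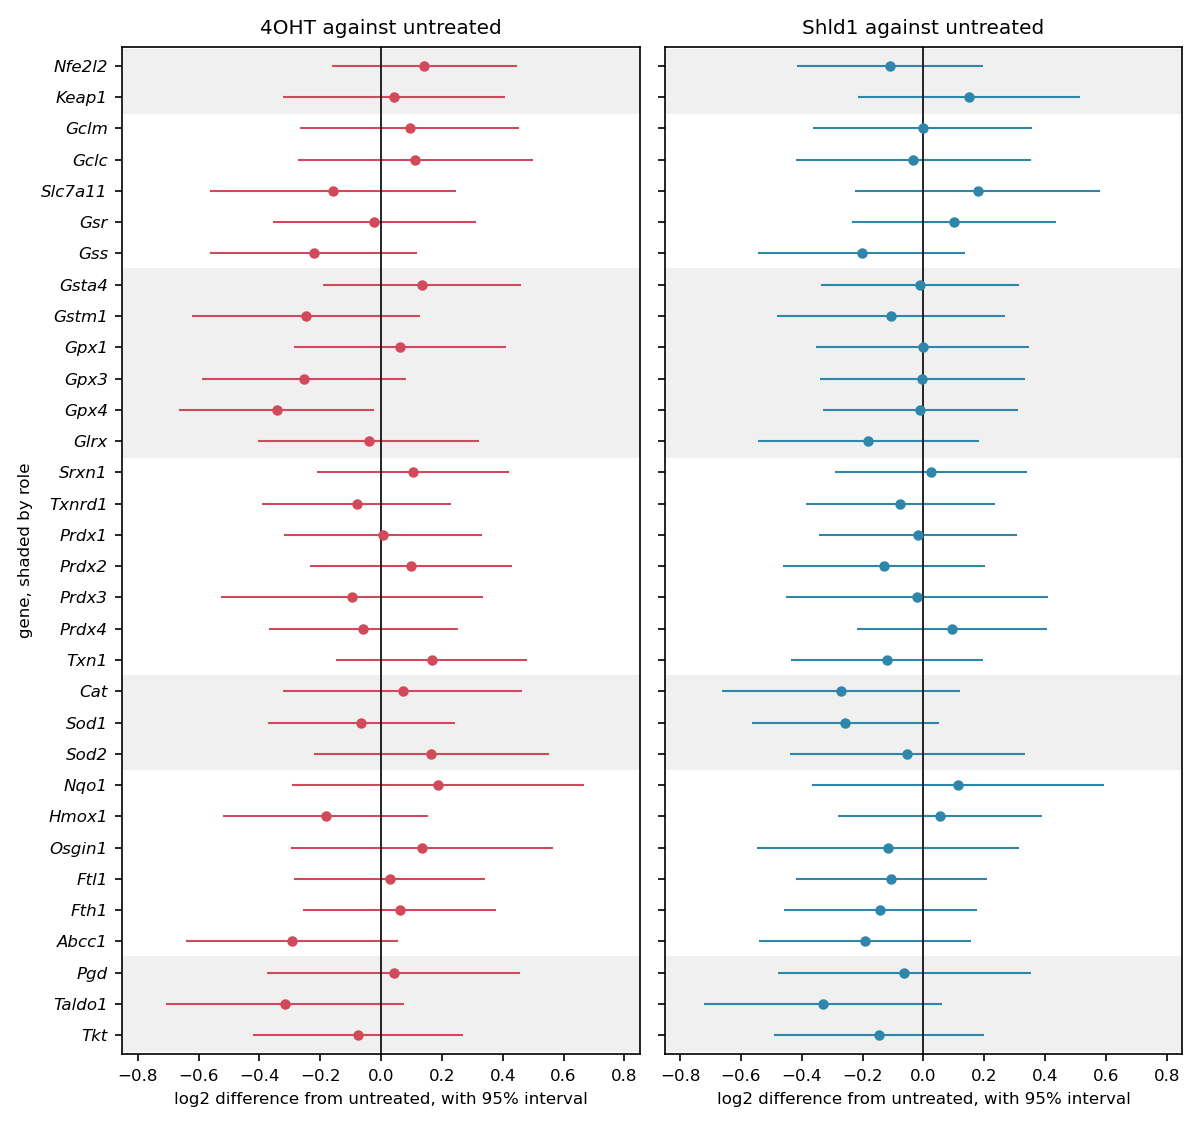
Log2 difference from untreated (x axis) with its 95% interval for the 32 measured genes (y axis, shaded by role), for 4OHT on the left and Shld1 on the right; both panels share the untreated arrays. The interval of Gpx4 with 4OHT, -0.67 to -0.02, is the only one in either panel that does not reach zero.

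The plainest pattern among the genes lay between the Shld1 duplicates. All 31 genes above background read lower on Shld1 replicate 2 than on replicate 1, by a median of -0.26. Among all rows 50.9% were lower on replicate 2, and among rows above background 64.6%. The same count was 13 of 31 between the untreated duplicates and 11 of 31 between the 4OHT duplicates. Relative to the untreated means, 29 of the 32 genes were below on Shld1 replicate 2 and 11 on replicate 1. Shld1 replicate 2 is the array with the narrowest range of signals. Stem cell markers read lower there too, 9 of 10 below the untreated mean with a median of -0.16. Other markers were mixed: 7 of 9 primitive endoderm markers lay above it (median 0.06), fibroblast markers split 4 and 4, and 5 of 7 trophoblast markers lay below. Of the 12912 rows above background, 8265 lay below on this array. Under quantile normalization, 25 of the 31 genes were still lower on replicate 2, by a median of -0.15, where 50.3% of all genes were. Cyclic loess and centring on the 75th percentile also left 25, where 50.9% and 32.4% of all genes were lower. Between the 4OHT duplicates the counts under these settings were 15, 19 and 18 of 31. Between the untreated duplicates the count was 14 under each. The share among rows above background was not counted under these settings. The 31 genes are also brighter than those rows, with a median signal of 7.55 against 5.86 on untreated replicate 1. Rows of like signal were not compared, so the counts cannot show a trait particular to this list.

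**Figure D4:**
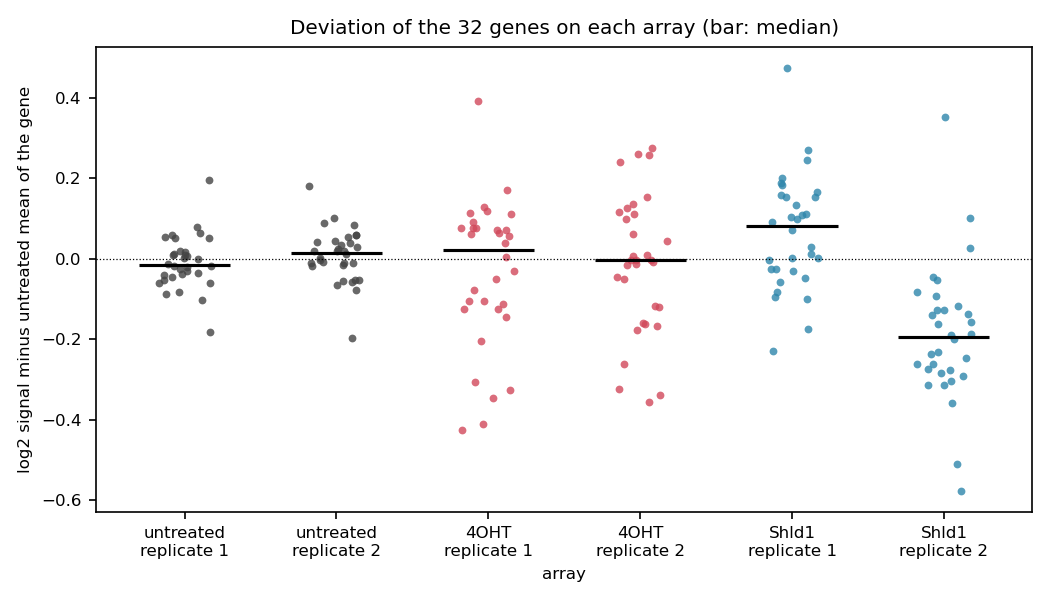
Log2 signal minus the untreated mean of the gene (y axis) for the 32 measured genes on each array (x axis), with the median as a bar. The points of Shld1 replicate 2 are centred at -0.19 and those of Shld1 replicate 1 at 0.08, while the 4OHT arrays are centred at 0.02 and close to zero.

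Between the agents at the same dose, the median difference of the 32 genes, 4OHT minus Shld1, was 0.07, with 20 above zero, and it was -0.09 without Shld1 replicate 2. Gpx4 was again the 1 gene with an unadjusted p under 0.05, where 5.66% of all rows had one (2.57% higher and 3.09% lower). Slc7a11 differed by -0.34 (SE 0.18), below background in both groups. Cat differed by 0.34 (SE 0.17), and by 0.10 without Shld1 replicate 2. The arrays did not overlap at 13 of the 32 genes, 8 higher and 5 lower with 4OHT, where 30.6% of rows did not overlap (15.0% higher and 15.6% lower). The 95% intervals lay within 2-fold for all 32 genes, as they did for 19895 of all 20176 rows.

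Other genes of the pathway were taken from a list of 72, of which 71 were measured, on 70 probe sets, since Gsta1 and Gsta2 share one and are each counted below. With 4OHT, 23 of the 71 (32.4%) lay above untreated, where 47.9% of all rows and 40.9% of those above background did. The median was -0.08, against -0.04 for rows above background, and 5 of the genes reached an unadjusted p under 0.05. All 5 were lower, where 2.43% of rows were; none passed after adjustment (limma, smallest adjusted p = 0.955). Txnip, the inhibitor of thioredoxin, was at 10.42 and 10.47 untreated and 9.82 and 10.01 with 4OHT, a difference of -0.53 (SE 0.17). Gstm4, a glutathione transferase, was at 6.10 and 6.18 untreated and 5.39 and 5.67 with 4OHT (-0.61, SE 0.19). Gpx7, a peroxidase of the endoplasmic reticulum, was at 6.52 and 6.62 untreated and 6.12 and 6.19 with 4OHT (-0.41, SE 0.14). Each of these had both 4OHT arrays below both untreated arrays. Chac1, which degrades glutathione, differed by -0.46 (SE 0.16), and Msra, methionine sulfoxide reductase, by -0.39 (SE 0.17), with its 4OHT mean of 3.50 below background. The list held 12 partners and relatives of NRF2 and KEAP1, of which 4 were higher and 8 lower with 4OHT, with none at an unadjusted p under 0.05. Their differences ran from -0.23 (SE 0.14) for Nfe2l1, a relative of NRF2 with both 4OHT arrays below untreated, to 0.14 (SE 0.14) for Nfe2l3, another relative with both above. The small MAF genes Maff, Mafg and Mafk differed by 0.09, -0.01 and 0.11, the repressor Bach1 by -0.08, and Cul3, the ligase scaffold that works with KEAP1, by 0.05.

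With Shld1, 26 of the 71 (36.6%) lay above untreated (median -0.06), where 48.7% of all rows and 41.5% of those above background did, and 0 of the 71 had an unadjusted p under 0.05. The largest statistics belonged to Tfrc, the transferrin receptor, at 8.37 and 8.40 untreated and 8.002 and 8.15 with Shld1 (-0.31, SE 0.14), to Mgst2 (0.39, SE 0.18), which was below background, and to Cbr3, a carbonyl reductase, at 5.93 and 6.06 untreated and 6.33 and 6.29 with Shld1 (0.32, SE 0.15). Cbr3 with 4OHT was at 6.14 and 6.41, also above both untreated arrays. On Shld1 replicate 2, 52 of the 71 genes were below the untreated mean, as were 8265 of the 12912 rows above background; on replicate 1 the counts were 30 and 6041. Between the agents, 6 of the 71 reached an unadjusted p under 0.05, where 5.66% of rows did, and none passed after adjustment (limma, smallest adjusted p = 0.864). Of these, Nfe2l3 was higher with 4OHT than with Shld1 (0.37, SE 0.14), and Gpx7 (-0.47, SE 0.14), Msra (-0.56, SE 0.17), Gstk1 (-0.45, SE 0.17), Pgls (-0.36, SE 0.14) and Txnip (-0.38, SE 0.17) were lower. Summed over the 8 fibroblast markers, the linear signal was 157 to 166 on the untreated arrays, 143 to 182 with 4OHT and 145 to 164 with Shld1, so the groups overlapped.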

How the data were processed

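Total RNA of RW4 cells was hybridised to single-colour Affymetrix arrays. The deposited table held 1 log2 value per probe set and array (35556 probe sets, 6 arrays); the scale was read from the values, and for background correction, summarization and normalization no method was given in the sources used here. Limma 3.14 appears in the submitters' processing notes, with no role. Values were used as deposited. Names came from GEO's platform annotation (21789 with 1 symbol, 1621 with several, 12146 with none), and each gene took its brightest probe set, including those listing several symbols, giving 20176 distinct rows. The 35 genes and all lists were chosen with earlier results of these data known.

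Group means over all 6 arrays were fitted in R 4.3.3 by limma 3.58.1, using empirical Bayes moderation (3 residual and 6.62 prior degrees of freedom), two-sided tests and Benjamini-Hochberg adjustment over all rows. Per-array values were given for Nfe2l2, Keap1, Nqo1, Hmox1, Gclm, Gclc, Srxn1, Txnrd1 and Slc7a11, and for members with an unadjusted p under 0.05. They were also given for the 5 members of largest statistic in each comparison and, outside this rule, for Osgin1. Others were given by role. Of the other pathway genes, those with an unadjusted p under 0.05 against untreated or, with none, the 3 of largest statistic were named; the NRF2 partners and the genes named between the agents were added after their values were seen. With 2 arrays per group an exact permutation test cannot go below p = 0.333, and none was used. The number of arrays limits precision (median SE 0.16). The fit was tested on simulated data. Replicate numbers were not used to pair the samples in the main fit, and correlations of same-numbered deviations were 0.05, -0.08 and -0.20. Whether same-numbered arrays were processed together is not stated, and these correlations cannot show it. Alternatives covered normalization, filtering, probe set choice, moderation, the replicate block and leaving out arrays.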

Additional observations from a re-analysis of the deposited data

How the results depend on the processing

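No member of the pathway passed at an adjusted p under 0.05 under any of the 18 alternatives in any comparison; the smallest adjusted p of a member was 0.608 with 4OHT, 0.199 with Shld1 and 0.258 between the agents (limma), the last 2 without Shld1 replicate 1. The count of all genes called was 0 throughout, except for 1 between the agents with an intensity trend, which was no member. The Gpx4 difference from untreated with 4OHT ran from -0.43 to -0.26. Its unadjusted p was not under 0.05 in every alternative, and with the replicate block it was 0.0622 (limma). The alternatives were not independent of each other. For 4OHT against untreated, leaving out either Shld1 array repeated the fit with only the groups compared. The replicate block changed no call at the adjusted threshold. Leaving out 1 array moved the median of the members from -0.19 (without Shld1 replicate 1) to 0.082 (without Shld1 replicate 2) for Shld1 against untreated and from -0.088 (without replicate 2) to 0.22 (without replicate 1) for 4OHT against Shld1. Without both arrays of narrower range these medians were 0.082 and -0.11. The cause was not tested. For 4OHT against untreated the median stayed between -0.02 and 0.06. Counts of all rows at an unadjusted p under 0.05 moved from 1001 to 1566 with 4OHT, from 863 to 1596 with Shld1 and from 1142 to 1932 between the agents when every probe set was tested, which raised the rows tested from 20176 to 35556; with the dimmest 40% left out (12105 rows tested) the Shld1 count was 469, and with array weights the count between the agents was 760. Leaving out 1 array gave 513 to 1646, 491 to 2731 and 709 to 2298. Single members changed sign in 28, 69 and 37 of 575 recomputed values in the 3 comparisons, none of them called. Signals near background limit Slc7a11, Mgst2 and Msra.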
